A study of Mus musculus with 3 samples.

Results

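Retinoic acid, the active form of vitamin A, is made inside cells from retinol, and 9 mouse genes of its synthesis, binding and response were followed through whole-lung RNA of a Lin28a and Lin28b double knockout. They were chosen by gene symbol: the retinal dehydrogenases Aldh1a1, Aldh1a2 and Aldh1a3, the cellular binding proteins Crabp1 and Crabp2, the receptors Rara and Rarb, the retinol transporter Stra6 and the degrading enzyme Cyp26a1. RefSeq identifiers in the deposited table of 16383 transcripts mapped to 8 of the 9 genes, in 18 rows, and Aldh1a3 was not analysed here. Of the 8 genes, 5 had a row above 0 in at least 1 library and 3 (Rara, Stra6 and Cyp26a1) were listed at 0 throughout. Levels are RPKM, reads scaled to transcript length and to the size of the library.

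Of the 3 libraries, 2 came from lungs labelled as lacking Lin28a and Lin28b (DKO 1 and DKO 2), and they were set against 1 wild-type lung library (WT). In the knockout, tamoxifen activated NKX2.1creERT, a Cre recombinase that the design calls epithelial specific, which removed the loxP-flanked exon 2 of both genes. Whole lung was used in each case, on the strain labelled C57BL/6J/mixed background. The labels do not give age or sex, whether WT carried the recombinase or received tamoxifen, or say that DKO 1 and DKO 2 were different animals, so p-values measure a spread that may be technical.

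Retinol enters cells through Stra6, is oxidised first to retinal and then, by the Aldh1a enzymes, to retinoic acid. Crabp proteins carry the acid in the cytoplasm, nuclear retinoic acid receptors paired with retinoid X receptors bind it on DNA, and Cyp26 enzymes break it down. In the mouse embryo this signal is needed for the lung bud to form, and Rarb and Cyp26a1 are textbook genes that it switches on.

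The DNA that the receptors read is a pair of half-sites in the same direction. A half-site was taken as AGGTCA, as the variant GGGTCA, as the variant AGTTCA or as the variant GGTTCA, and the form of the pair with 5 bases between them is called DR5. The promoters of Rarb and Cyp26a1 each held a DR5 element, and these are shown because Rarb and Cyp26a1 are the response genes of the list. Half-sites are in capitals and each element reads 5′ to 3′ along its own strand. RefSeq sequences on GRCm38.p6 place the first at chr14:16575513-16575529, on the strand of the gene and 53 to 37 bases before the start site, and the second at chr19:37697776-37697792, on the strand opposite to the gene and 32 to 16 bases before it.
Rarb: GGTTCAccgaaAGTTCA
Cyp26a1: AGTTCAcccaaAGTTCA

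In full, the window from 250 bases before to 50 after the start site is given for both, read along the gene with the DR5 element in capitals. The Rarb window is chr14:16575427-16575726 (minus strand) and the Cyp26a1 window chr19:37697558-37697857 (plus strand). The window of Aldh1a2, chr9:71215539-71215838 (plus strand), is added because Aldh1a2 had, of the tested genes of the list, the largest log2 difference from WT in both DKO libraries.
Rarb: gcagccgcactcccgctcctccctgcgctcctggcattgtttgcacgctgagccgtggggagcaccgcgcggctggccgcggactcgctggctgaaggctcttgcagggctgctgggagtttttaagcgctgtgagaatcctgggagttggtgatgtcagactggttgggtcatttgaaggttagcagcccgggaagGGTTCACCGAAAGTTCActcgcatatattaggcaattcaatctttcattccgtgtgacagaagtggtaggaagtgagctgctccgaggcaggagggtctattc
Cyp26a1: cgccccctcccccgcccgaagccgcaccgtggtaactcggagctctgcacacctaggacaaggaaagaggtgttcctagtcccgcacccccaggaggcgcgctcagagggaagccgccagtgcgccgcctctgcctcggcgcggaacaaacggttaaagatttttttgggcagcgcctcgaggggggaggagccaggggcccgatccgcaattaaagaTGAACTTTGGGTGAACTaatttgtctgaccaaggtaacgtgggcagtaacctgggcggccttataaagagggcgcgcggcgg
Aldh1a2: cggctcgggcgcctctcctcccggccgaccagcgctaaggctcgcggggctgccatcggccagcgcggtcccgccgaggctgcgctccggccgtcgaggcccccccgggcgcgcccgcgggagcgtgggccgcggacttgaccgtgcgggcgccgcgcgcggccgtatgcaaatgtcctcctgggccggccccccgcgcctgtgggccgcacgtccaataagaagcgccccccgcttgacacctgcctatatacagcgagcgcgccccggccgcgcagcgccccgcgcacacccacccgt

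Searched on both strands, a DR5 element was present in 32 of 32851 promoter windows of this length, or 0.0974%, and the form with 2 bases between the half-sites, DR2, in 88, or 0.268%. A single half-site was far commoner, at 43.7% of windows. The table held 14 windows for 7 of the 9 genes, and none for Crabp2 or Aldh1a3. A half-site was found in 6 of the 14, in windows of Rarb, Cyp26a1, Rara, Aldh1a1 and Stra6. None of the 4 half-site forms was in the Aldh1a2 window, whose bases are 78% G or C, or in that of Crabp1. These matches describe the letters in the windows and do not show binding.

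**Figure D1:**
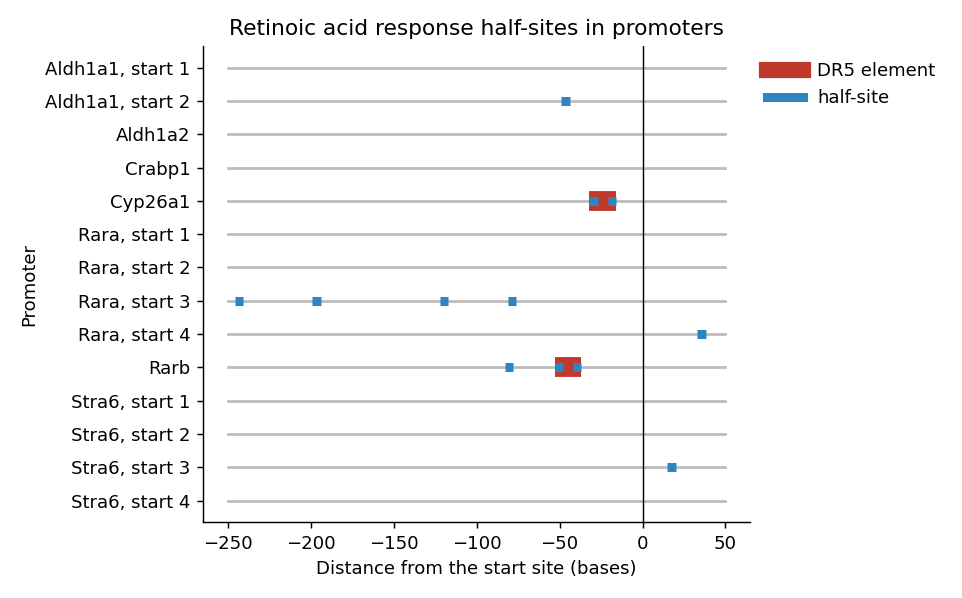
Map of the 14 promoter windows of 7 retinoic acid genes, with distance from the start site in bases on the horizontal axis and the window of each annotated start on its own line. Blue blocks are half-sites on either strand and red blocks are DR5 elements, which lie 53 to 37 bases before the start in Rarb and 32 to 16 bases before it in Cyp26a1.

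The libraries were unlike in ways that touch every comparison. Depth, as implied by the commonest low values, was near 30700000 reads in DKO 1, 34200000 in DKO 2 and 48700000 in WT. Lin28b stood at 0.187 RPKM in DKO 1 and 0.590 in DKO 2, against 0.449 in WT, from about 31, 109 and 118 reads. It was thus below WT in the library labelled DKO 1 and not in that labelled DKO 2. These values cover the whole transcript in whole lung, whereas the design removes exon 2 in epithelium. They are therefore no direct measure of the deletion. Of 10 lung marker genes with a row, 5 (Nkx2-1, Sftpb, Scgb1a1, Ager and Tbx4) were listed at 0 in every library. The lung list summed to 22.5 RPKM in DKO 1 and 13.4 in DKO 2, against 380 in WT. Sftpc, of distal lung epithelium, held most of that difference, with 7.55 RPKM in DKO 1 and 0.0364 in DKO 2, against 369 in WT, while Foxf1, of lung mesenchyme, had 12.4 and 8.90, against 9.15. Liver markers summed to 11.4 RPKM in DKO 1, 183 in DKO 2 and 7.55 in WT, and heart muscle markers to 13.7, 81.8 and 21.1 in the same order. All 4 Y-linked genes were above 0 in both DKO libraries and listed at 0 in WT, so sex and genotype cannot be told apart. Of all transcripts 68.0% were listed at 0 throughout. That share was 86.4% for the transcripts of genes with 4 or more RefSeq transcripts and 47.8% for those of genes with 1. Whether a 0 was a true count or a failed estimate was not tested.

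For the comparison of DKO with WT, the 2066 transcripts whose RPKM averaged 1 or more were tested with limma on log2(RPKM + 1), a scale that understates differences of low genes. Of these, 2 passed at an adjusted p under 0.05, or 0.0968% of those tested. Neither was a retinoic acid gene. The 3 members that reached the level for testing were Aldh1a2, Crabp2 and Aldh1a1. Of these 3, 0 passed and 1 (Aldh1a2) had an unadjusted limma p under 0.05, as did 66 of all 2066 tested (3.19%). Of the 3, 1 lay above WT in both DKO libraries, 1 below it in both and 1 on either side. Over all tested transcripts the shares above, below and on either side were 32.1%, 31% and 36.9%. The median log2 difference of the 3 was 0.24, beside −0.01 for all tested transcripts. That median is the value of Crabp2 alone, which differed from WT by −0.94 in DKO 1 and 1.42 in DKO 2.

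Aldh1a2 (NM_009022, chr9:71215789-71296243) encodes the main retinal dehydrogenase of the mouse embryo, known in the developing lung from mesothelium and mesenchyme. Both DKO libraries lay above WT: Aldh1a2 had 11.4 RPKM in DKO 1 and 13.8 in DKO 2, against 3.75 in WT. The gap between the DKO libraries, 0.26 on the log2(RPKM + 1) scale, was wider than that of 23.1% of tested transcripts. A place above WT in both DKO libraries was shared by 32.1% of all tested transcripts. On RPKM the ratio to WT was 3.05 in DKO 1 (95% exact binomial interval 2.70 to 3.44, from about 793 and 413 reads) and 3.69 in DKO 2 (3.29 to 4.15, from about 1071 and 413 reads). Such intervals compare single libraries, so they hold counting error alone and no spread between animals. They are too narrow where reads are PCR copies of the same molecule, which are not independent.

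The log2 difference of Aldh1a2 over both DKO libraries was 1.52 (SE 0.67, limma unadjusted p = 0.0432, adjusted p = 0.999), so it did not pass. It met the rule of size, under which each DKO library is 2-fold or more away from WT on 1 side and nearer to the other DKO library than to WT. This rule was met by 66 of 2066 transcripts (3.19%) in the higher direction and 31 (1.5%) in the lower. Among the 664 transcripts above WT in both, its smaller difference, 1.39 in DKO 1, ranked 39. With a pseudocount of 5 it no longer met the rule.

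In whole-lung RNA, fewer cells of a type and less RNA per cell cannot be told apart. Of the mesenchymal markers 9 of 11 were above 0 in some library, while Pdgfrb and Postn were at 0. The mesenchymal list summed to 235 RPKM in DKO 1 and 167 in DKO 2, against 195 in WT. Of its 6 tested genes, 2 (Col1a1 and Col1a2) lay above WT in both DKO libraries, 1 (Vim) below it in both and 3 on either side. Over all tested transcripts those shares were 32.1%, 31% and 36.9%. Of the mesothelial list only Krt19 and Gpm6a had a row among 8 genes. Krt19, which epithelium also expresses, had 6.17 RPKM in DKO 1 and 9.11 in DKO 2, against 3.08 in WT, and Gpm6a was listed at 0. Leukocyte markers summed to 353 RPKM in DKO 1 and 193 in DKO 2, against 31.9 in WT, with DKO 1 highest, unlike Aldh1a2. Each of the 5 tested lay above WT in both DKO libraries, as Aldh1a2 did. Of the 7 leukocyte genes with a row, Ptprc and S100a9 were at 0. Each of the 5 tested erythroid markers also lay above WT in both. Their sum, given below, had the order of Aldh1a2, with DKO 2 highest and WT lowest. The part of mesenchymal, mesothelial, leukocyte or erythroid RNA in the Aldh1a2 values was not tested.

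Aldh1a1 (NM_013467, chr19:20492583-20643463), a retinal dehydrogenase that in lung is known from airway epithelium, went the other way. It had 1.38 RPKM in DKO 1 and 0.590 in DKO 2, against 2.22 in WT, so both DKO libraries lay below WT and DKO 2 was the lowest. On RPKM the ratio to WT was 0.622 in DKO 1 (counting interval 0.480 to 0.801, about 87 and 222 reads) and 0.263 in DKO 2 (0.184 to 0.368, about 41 and 222 reads). The log2 difference was −0.73 (SE 0.78, limma adjusted p = 0.999), which did not pass. Its row is the 1 of 5 RefSeq transcripts of the gene that was present here.

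Most tested epithelial markers were likewise below WT in both DKO libraries, and their part in the Aldh1a1 values was not tested. Foxa1, Shh, Sox2 and Sox9 had the order of Aldh1a1, with WT highest and DKO 2 lowest, as did Sftpc. The median log2 difference of the tested markers was −0.63 in DKO 1 and −0.97 in DKO 2. Their summed level was 23.8 RPKM in DKO 1 and 37.7 in DKO 2, against 44.2 in WT, a sum in which Krt18, Epcam and Krt19 weigh most. Of 11 genes 9 had a row, and each of the 9 was above 0 in some library. Of the 7 tested, 5 were below WT in both DKO libraries and Krt19 was above it in both. Over all tested transcripts the shares below and above WT in both were 31% and 32.1%.

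Between the enzymes, the balance of levels differed by library. The RPKM of Aldh1a2 was 8.28 times that of Aldh1a1 in DKO 1 and 23.4 times in DKO 2, against 1.68 times in WT. Aldh1a2 thus made up 89.2% and 95.9% of their summed RPKM in DKO 1 and DKO 2 and 62.8% in WT. The sum itself was 12.8 RPKM in DKO 1 and 14.4 in DKO 2, against 5.97 in WT. This balance was not tested.

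**Figure D2:**
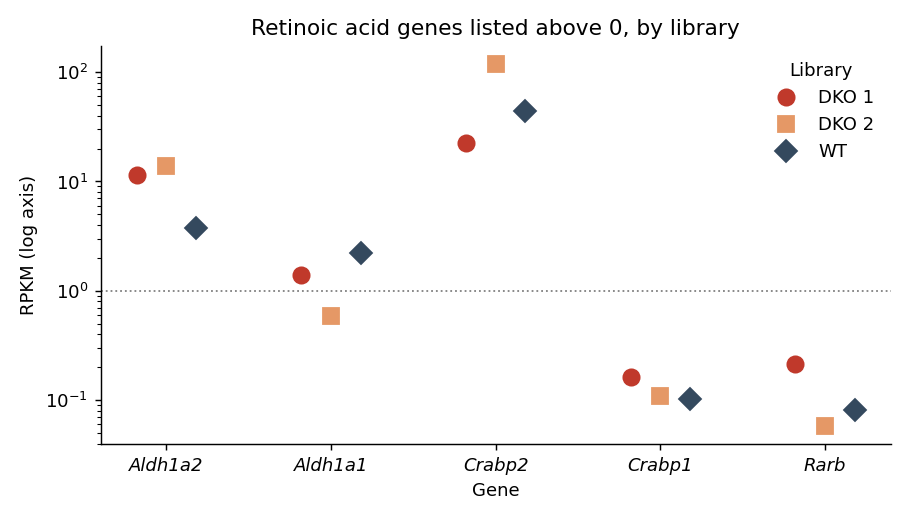
RPKM on a log axis of the 5 retinoic acid genes listed above 0, with a point for each library (DKO 1, DKO 2 and WT) and a dotted line at the 1 RPKM level for testing, which applies to the mean of the libraries. Aldh1a2 is at 11.4 and 13.8 RPKM in the DKO libraries and 3.75 in WT, whereas the points of Crabp2 straddle WT, at 22.4 and 118.8 RPKM in the DKO libraries and 43.8 in WT.

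Crabp2 (NM_007759, chr3:87948693-87953372) encodes the cytoplasmic protein that hands retinoic acid to its nuclear receptors, and it had the highest RPKM of the list in each library. It stood at 22.4 RPKM in DKO 1 and 118.8 in DKO 2, against 43.8 in WT. DKO 1 was the lowest library and DKO 2 the highest, with WT between them. In RPKM it outranked 90.4%, 94.6% and 92.6% of the transcripts above 0 in DKO 1, DKO 2 and WT.

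The ratio of Crabp2 RPKM to WT was 0.510 in DKO 1 (counting interval 0.466 to 0.558, about 639 and 1987 reads) and 2.71 in DKO 2 (2.57 to 2.86, about 3783 and 1987 reads). DKO 2 was 5.31 times DKO 1 (4.88 to 5.78). The gap between the DKO libraries, 2.36 on the log2(RPKM + 1) scale, was wider than that of 97.5% of tested transcripts. The log2 difference over both was 0.24 (SE 0.97, limma adjusted p = 0.999). It did not pass, and its sign rests on DKO 2, since without that library the difference was −0.94 and without DKO 1 it was 1.42.

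DKO 2 also had the highest sums of heart muscle, liver and erythroid markers. The heart sum, given above, shared the whole order of Crabp2, whereas the liver and erythroid sums were lowest in WT. Among heart genes only Myl4 had that order, with 11.4, 56.1 and 19.1 RPKM (DKO 1, DKO 2, WT), and it weighed most in the sum. Actc1 was lowest in WT, with 2.23, 20.8 and 2.01 RPKM (same sequence), and Myl2 was above 0 only in DKO 2, at 4.90 RPKM. The liver genes Afp and Ttr also had the order of Crabp2, while Alb, Apoa1 and Apoa2 were lowest in WT. Of the heart list 3 of 5 genes with a row were above 0, with Nppa and Tnnt2 at 0, and of the liver list 5 of 7, with Ahsg and Serpina1a at 0. The 5 of 6 erythroid genes above 0, Alas2 being at 0, summed to 28712 RPKM in DKO 1 and 102767 in DKO 2, against 20199 in WT. The part of RNA from such cells in the Crabp2 values was not tested.

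Crabp1 (NM_013496, chr9:54764748-54773110), the other cytoplasmic binding protein, was barely above 0. It had 0.163 RPKM in DKO 1 and 0.109 in DKO 2, against 0.102 in WT, from about 4, 3 and 4 reads. The ratio to WT was 1.59 in DKO 1 (counting interval 0.296 to 8.52) and 1.07 in DKO 2 (0.156 to 6.31), so no difference was detectable at this depth. A further Crabp1 transcript was listed at 0. In RPKM, Crabp2 was thus well over Crabp1 in each library.

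Rarb (NM_011243, chr14:16430839-17082331) encodes retinoic acid receptor beta, whose promoter element is shown above. It had 0.214 RPKM in DKO 1 and 0.0577 in DKO 2, against 0.0811 in WT, from about 20, 6 and 12 reads. DKO 1 was the highest library and DKO 2 the lowest, the reverse of Crabp2. The ratio to WT was 2.65 in DKO 1 (counting interval 1.23 to 5.94) and 0.712 in DKO 2 (0.219 to 2.05). The other 3 Rarb transcripts were listed at 0 in every library. Where no filter on low values was used, the log2 difference of Rarb was 0.07 (SE 0.13, limma adjusted p = 0.924) and that of Crabp1 was 0.04 (SE 0.06, limma adjusted p = 0.922).

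**Figure D3:**
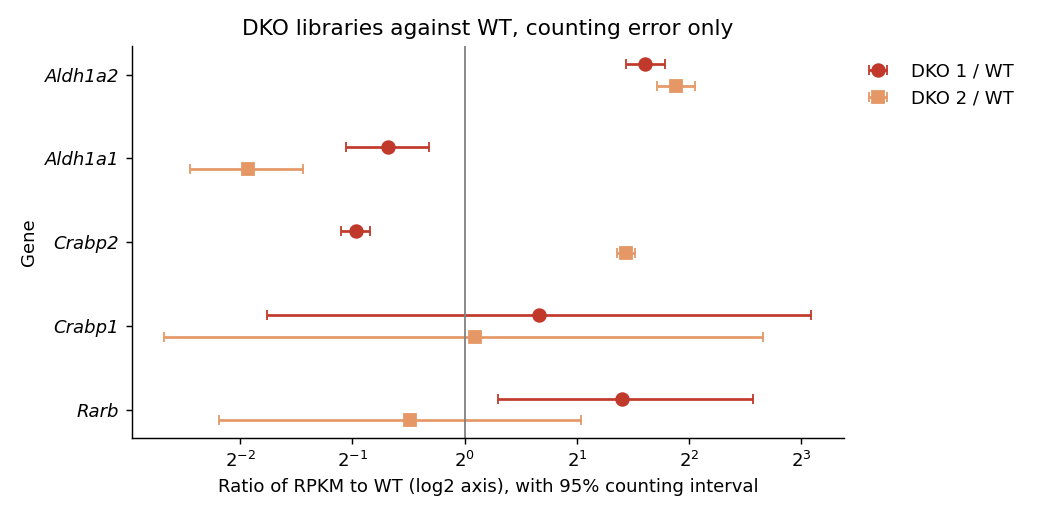
Ratio of the RPKM of each DKO library to WT on a log2 axis, with 95% exact binomial intervals that cover counting error only, for the 5 retinoic acid genes listed above 0. Both points of Aldh1a2 lie above 1 and both of Aldh1a1 below it, those of Crabp2 lie on opposite sides, and the intervals of Crabp1 cross 1 in both libraries.

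Rara (chr11:98927800-98974942), the receptor alpha gene, Stra6 (chr9:58063793-58154004), the retinol transporter gene, and Cyp26a1 (chr19:37697738-37701536), the breakdown enzyme gene, were listed at 0. Rara and Stra6 have 4 rows each here, of 5 and 4 RefSeq transcripts. Transcripts of genes with 4 or more were listed at 0 more often than those of genes with 1. Cyp26a1 has 1 RefSeq transcript (NM_007811). At the estimated depths 3 reads on it would have been 0.0546 RPKM in DKO 1, 0.0490 in DKO 2 and 0.0344 in WT, the level that a count of 0 allows if the 0 was a true count. Whether the 0 of Cyp26a1 was a true count or a failed estimate was not tested, and no comparison was made for these 3 genes.

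By a rule of likeness, the genes nearest to each member were sought among tested genes with a symbol. Symbols made of Gm and a number, or ending in Rik, were left out. Distance was Euclidean over the DKO 1 and DKO 2 differences from WT, computed from 3 libraries. Nearest to Aldh1a2 were Tulp3, Dpm2 and Pts, at distances of 0.12 to 0.13 on the log2 scale. Pts, for instance, had 44.4 RPKM in DKO 1 and 55.2 in DKO 2, against 17.8 in WT. Nearest to Aldh1a1 were Clcn4, Mapre1 and Gnai1 at 0.04 to 0.05. Among the genes searched, Crabp2 had no neighbour closer than 0.23, and Traf5, Tmem185a and the muscle gene Myl4 stood at 0.23 to 0.26. Myl4 had 11.4 RPKM in DKO 1 and 56.1 in DKO 2, against 19.1 in WT.

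**Figure D4:**
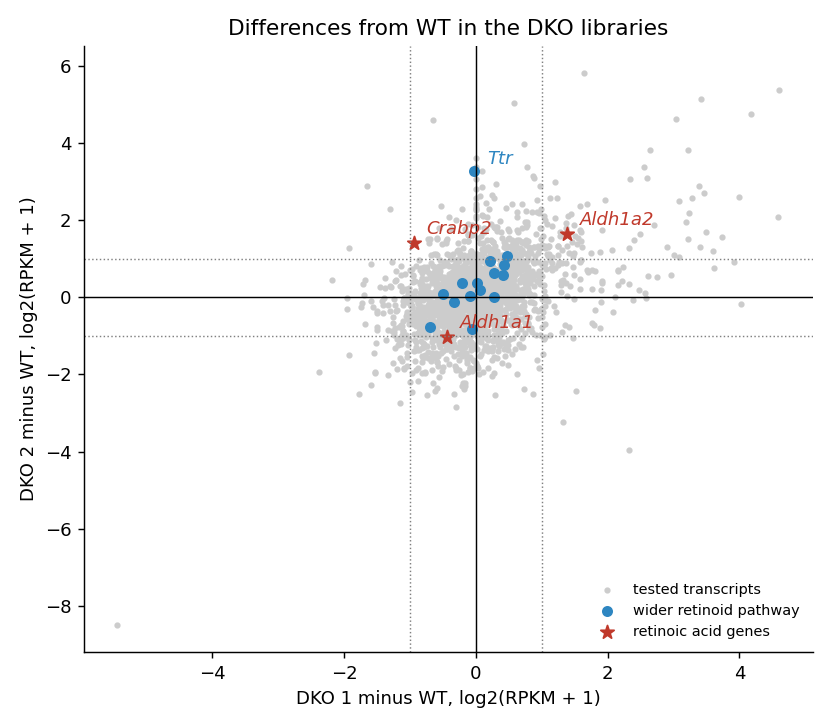
Difference of DKO 2 from WT against that of DKO 1 from WT, both on log2(RPKM + 1), for 2066 tested transcripts (grey), 15 genes of the wider retinoid pathway (blue) and 3 retinoic acid genes (red stars), with dotted lines at 2-fold. Aldh1a2 sits past both lines at 1.39 and 1.64, Crabp2 has differences of opposite sign, −0.94 and 1.42, and Ttr departs from WT in DKO 2.

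A wider list of 62 genes for retinoid supply, metabolism, reception and response was also read. Of these, 46 had a row, 32 of them above 0, and 15 were tested. Of the 15, 0 passed limma, 0 had an unadjusted limma p under 0.05 and 0 met the rule of size. Above WT in both DKO libraries were 8 of the 15, below it in both 3, and 4 lay on either side, beside 32.1%, 31% and 36.9% of all tested transcripts. Their median log2 difference was 0.14.

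Among genes of supply, Ttr, the plasma carrier of retinol-binding protein and a liver gene, was listed at 0 in DKO 1 and had 8.81 RPKM in DKO 2, against 0.0168 in WT. Rbp2, a retinol-binding protein of gut, was likewise listed at 0 in DKO 1 and had 2.04 RPKM in DKO 2, against 0.0917 in WT. The part of liver or gut RNA in these values was not tested. Rbp4 and Bco1 were listed at 0.

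Of the enzymes that interconvert retinol and retinal, Adh1, an alcohol dehydrogenase, had 26.1 RPKM in DKO 1 and 30.4 in DKO 2, against 33.1 in WT. Dhrs3, a retinal reductase, was below the level for testing and shared the order of Crabp2, with 0.152 RPKM in DKO 1 and 1.37 in DKO 2, against 0.408 in WT. Its ratio to WT was 0.380 in DKO 1 (counting interval 0.177 to 0.744, about 11 and 46 reads) and 3.37 in DKO 2 (2.37 to 4.87, about 109 and 46 reads). Cyp26b1 and Cyp26c1, which like Cyp26a1 break down retinoic acid, and the binding protein gene Fabp5 were listed at 0. Of 10 receptor and cofactor genes with a row, 6 were above 0 and 4, among them Rarg, Rxra and Rxrb, were listed at 0. Ncoa3, a coactivator and the 1 gene of this class that was tested, had 1.40 RPKM in DKO 1 and 0.990 in DKO 2, against 0.976 in WT. Ncoa1, a further coactivator, had 0.227 and 0.718 RPKM in DKO 1 and DKO 2, against 0.448 in WT.

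The genes known as targets of retinoic acid were better measured, with 20 of 22 above 0 and 11 tested. Of the 11, 7 were above WT in both DKO libraries, 2 below it in both and 2 on either side, beside the same 32.1%, 31% and 36.9% of all tested transcripts. Their median log2 difference was 0.19.

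Among the Hox genes, Hoxb4 had 4.57 RPKM in DKO 1 and 6.12 in DKO 2, against 3.58 in WT, and Hoxb6 had 7.37 and 12.9, against 6.21. Hoxa2 had 2.98 and 4.02 RPKM, against 2.92 in WT. These 3 genes shared an order, in which DKO 2 was the highest library and WT the lowest. On RPKM the ratio of DKO 2 to WT was 1.71 for Hoxb4 (counting interval 1.51 to 1.94) and 2.07 for Hoxb6 (1.82 to 2.36). Hoxa4 had 7.47 and 8.23 RPKM in DKO 1 and DKO 2, against 8.04 in WT, and Hoxb5 had 14.5 and 22.1, against 20.7. Hoxb1 was low throughout and highest in DKO 1, with 0.549 RPKM in DKO 1, 0.0563 in DKO 2 and 0.0890 in WT, from about 35, 4 and 9 reads.

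Hoxa5, a Hox gene needed for mouse airway and lung development, was the most abundant target gene by RPKM and lay below WT. It had 29.5 RPKM in DKO 1 and 28.1 in DKO 2, against 48.4 in WT, so the DKO libraries were nearly level with each other. The RPKM ratio to WT was 0.609 in DKO 1 (counting interval 0.576 to 0.645) and 0.580 in DKO 2 (0.549 to 0.613). The log2 difference was −0.73 (SE 0.76, limma adjusted p = 0.999), which did not pass. Nr2f1, an orphan nuclear receptor gene, was the other target below WT in both, with 10.03 RPKM in DKO 1 and 5.46 in DKO 2, against 10.4 in WT. Its relative Nr2f2, under the level for testing, had 0.611 and 0.520 RPKM, against 1.04 in WT.

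Of the remaining targets, Tbx5, a T-box gene of lung bud mesenchyme, had 2.51 RPKM in DKO 1 and 3.61 in DKO 2, against 1.61 in WT. Tshz1, a zinc finger gene, had 10.003 and 11.4 RPKM, against 7.23 in WT. Tgm2, a transglutaminase gene, was close to level, with 3.07 and 3.43 RPKM, against 2.89 in WT. Below the level for testing, Egr1, an immediate early gene, had 1.43 and 0.466 RPKM in DKO 1 and DKO 2, against 0.414 in WT. Of the 11 tested targets, 0 passed limma. The fit takes its residual spread from the DKO libraries, with 1 degree of freedom, and assumes the lone WT library to share it. As the prior has 11.2 degrees of freedom, each SE rests mostly on the trend over all tested transcripts.

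**Figure D5:**
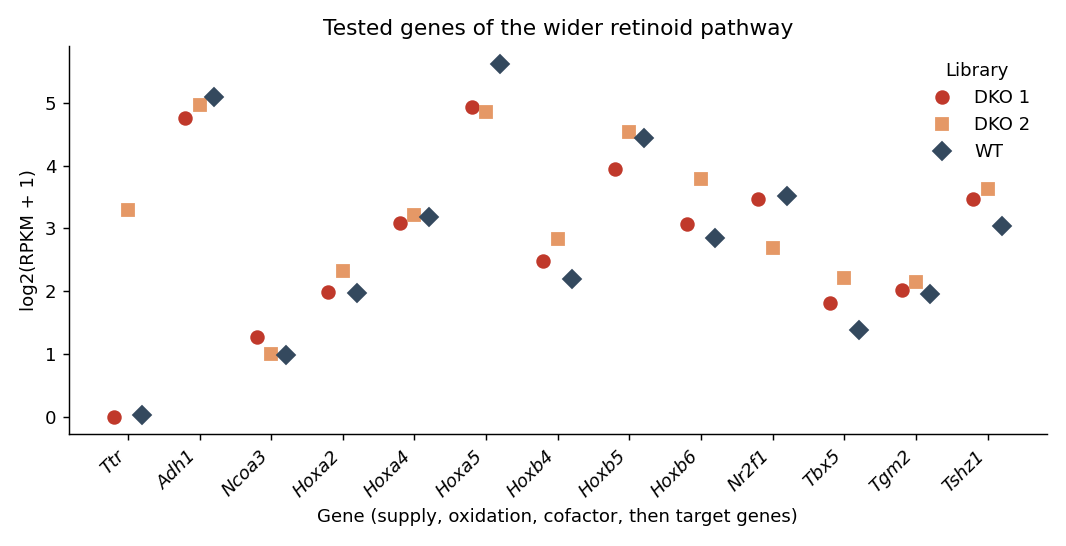
Levels as log2(RPKM + 1) of 13 of the 15 tested genes of the wider retinoid pathway, with a point for each library (DKO 1, DKO 2 and WT) and genes ordered from supply through oxidation and cofactor to targets. Hoxa5 is below WT in both DKO libraries, Tbx5 and Tshz1 are above it in both, and Ttr stands out in DKO 2 alone.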

How the data were processed

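Whole-lung RNA of 2 DKO libraries and 1 WT library was analysed. Trizol extraction was followed by library preparation with a SMARTer Ultra Low Input kit, per the labels' protocols. The authors deposited RPKM values per RefSeq transcript. Per the submitters' processing notes, the tools were cutadapt, TopHat2, HTSeq and edgeR with build mm10. For versions, annotation, strand setting and scaling total, the sources used here give nothing, so overlapping genes are uncertain.

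Identifiers, with a trailing copy number removed, were named from RefSeq (GRCm38.p6, 16151 rows) and GENCODE M21 (77 rows), leaving 155 unnamed. RPKM times GENCODE transcript length gave the approximate worth of 1 read. Of values of 1 to 100 reads, 45.2%, 43.8% and 45.6% in DKO 1, DKO 2 and WT lay within 0.05 of a whole read, where chance gives 10%, so read numbers are approximate. Intervals are at the 95% level.

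Transcripts averaging 1 RPKM or more were fitted with limma 3.58.1 in R 4.3.3 on log2(RPKM + 1) (mean-variance trend, two-sided, Benjamini-Hochberg over 2066 transcripts, threshold 0.05, 1 residual degree of freedom, prior 11.2). The procedure was tested on simulated data with planted changes larger than the differences of the members. That test does not show how often differences of their size would be found. The members and lists were chosen with earlier results of these data known. All 9 members, list genes with at least 0.5 RPKM in some library and the 3 nearest genes of each tested member are named, except some that are not reported here. Alternatives were pseudocounts of 0.1 and 5, other filters, scalings and moderation, a 1.5-fold rule and leaving out each DKO library.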

Additional observations from a re-analysis of the deposited data

How the results depend on the processing

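Under 12 alternatives for Aldh1a2 and 11 for Aldh1a1 the sign of the difference was kept, from 1.01 to 1.72 and from −1.20 to −0.27 on the log2 scale, and that of Crabp2 turned only without DKO 2 (range −0.94 to 1.42). With a filter at 5 RPKM Aldh1a1 was not tested. Limma adjusted p ran from 0.885 to 0.999 for Aldh1a2, 0.922 to 0.999 for Aldh1a1 and 0.964 to 0.999 for Crabp2, so 0 of the 3 passed under any alternative with a test. Aldh1a2 met the rule of size in 9 of 10 such alternatives, failing with a pseudocount of 5. The median of the tested members ran from −0.44 without DKO 2 to 1.42 without DKO 1. Rescaling to TPM moved the median of all tested transcripts to −0.22. Beside the 2 transcripts that passed limma, 10 passed with a filter at 5 RPKM, 12 with median scaling, 14 with rescaling without globin genes, 13 with a pseudocount of 0.1 and 1 with a pseudocount of 5. With no filter, quantile normalization and TPM, 0 passed limma (260, 40 and 38 at an unadjusted p under 0.05). The 97 transcripts past the rule of size became 275 at 1.5-fold, 50 with a filter at 5 RPKM, 166 with a pseudocount of 0.1 and 34 with a pseudocount of 5. Leaving out a DKO library gave 280 to 555, where the rule is 2-fold in the library that remains. With TPM the split was 71 higher and 67 lower, beside 66 and 31. Limma could not be fitted with a DKO library left out, as no residual degrees of freedom remain. No paired analysis was possible because the labels give WT no replicate number shared with both DKO libraries. Depth limits Crabp1 and Rarb most, which rest on 3 to 20 reads in each library.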

Other observations

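The DR5 element was carried by windows of 31 genes, of which 6 had a row and 3 were above 0 in some library. These were Rarb, Syndig1 (0.206 RPKM in DKO 1, listed at 0 in DKO 2, and 0.300 in WT) and the embryonic globin gene Hbb-y. Hbb-y, singled out after its values were seen, had 25259 RPKM in DKO 1 and 91331 in DKO 2, against 18354 in WT. Its element lies at chr7:103853324-103853340, 133 to 117 bases before the start site and on the strand opposite to the gene, with half-sites in capitals below.
Hbb-y: AGGTCAtgggaGGGTCA

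Levels of Gata4, a transcription factor gene of the target list under the level for testing, differed between the DKO libraries, with 0.365 RPKM in DKO 1 and 0.0172 in DKO 2, against 0.145 in WT, from about 38, 2 and 24 reads.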
